A study of Mus musculus with 8 samples.

Results

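The organic ion and drug transporters of the kidney were followed here as 36 genes of 4 families: the SLC22 organic anion and cation carriers, the SLCO organic anion transporting polypeptides, the SLC47 extruders and the multidrug members of the ABC family. They were taken by symbol, and all 36 had a row among the 37583 gene rows of each deposited count file. Poly-specific carriers of this kind move drugs, toxins, urate and other metabolites across the epithelium of the proximal tubule. Uptake carriers in the basolateral membrane, such as the organic anion transporters OAT1 and OAT3 and the cation transporter OCT2, load the cell from blood, and extruders and ATP-driven pumps in the apical membrane pass the load into urine. Some SLC22 carriers in the apical membrane work in the other direction and recover urate, nicotinate or carnitine from the filtrate.

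Whole kidneys were profiled by RNA-seq in 2 groups of 4 libraries, each library labelled as 1 replicate; no label says that every kidney came from a different animal. The libraries labelled knockout came from b-actinCreERT2+TFAP2Bfl/fl mice, in which a Cre recombinase under a beta-actin promoter, active in all tissues, can be switched on to delete Tfap2b, the gene of the transcription factor AP-2 beta. The libraries labelled wildtype came from control littermates, described as WT with no allele named; no source used here states ages or an induction schedule. The comparison asks which kidney transcripts differ between the groups, and RNA of the whole organ was used, so that fewer cells of a type and less RNA per cell cannot be told apart.

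The gene counts per library came to 13435113 to 17930347 in the knockout group and 13783857 to 17741722 in the wildtype group. Levels are CPM, counts scaled by TMM factors to a common library size. Of 15228 genes tested with edgeR's quasi-likelihood test, 949 rose and 868 fell at an adjusted p under 0.05. Scaled by library totals only, 1658 rose and 508 fell, and the median of all genes moved to 0.11 on the log2 scale. Tfap2b itself had 238, 267, 237 and 240.3 CPM in the libraries labelled knockout, against 94.3, 105, 111 and 103 CPM in the wildtype libraries. These counts went against the genotype label, with a log2 fold change of 1.25 ± 0.07 (SE, edgeR adjusted p = 4.18e-06) and the smallest p that an exact two-sided permutation test allows, 0.0286. A count over the whole gene does not check a deletion of some of its exons, so groups are called by their labels throughout. Every library held at least 10122 counts of Xist and at most 3 counts over 4 Y-linked genes.

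Of the 36 transporters, 35 passed the filter on low counts, and Slc47a2, with 0.303 to 1.05 CPM over the 8 libraries, did not. Of those 35, 8 fell and 2 rose, in all 28.6% of the transporters against 11.9% of all genes tested. The share of all genes that fell was 5.7% and the share that rose was 6.23%. The genes that fell were Slc22a13, Slc22a29, Slc22a30, Slc22a4, Slc22a5, Slc22a18, Abcc3 and Abcc6, and those that rose were Abcc1 and Abcc4. The median log2 fold change of the 35 was -0.16, against 0.00 over all genes. The estimate was below 0 for 25 and above 0 for 10. All knockout libraries lay below all wildtype libraries for 7 of the 35, against 9.05% of all genes, and above them for 2, against 9.42% of all genes.

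**Figure D1:**
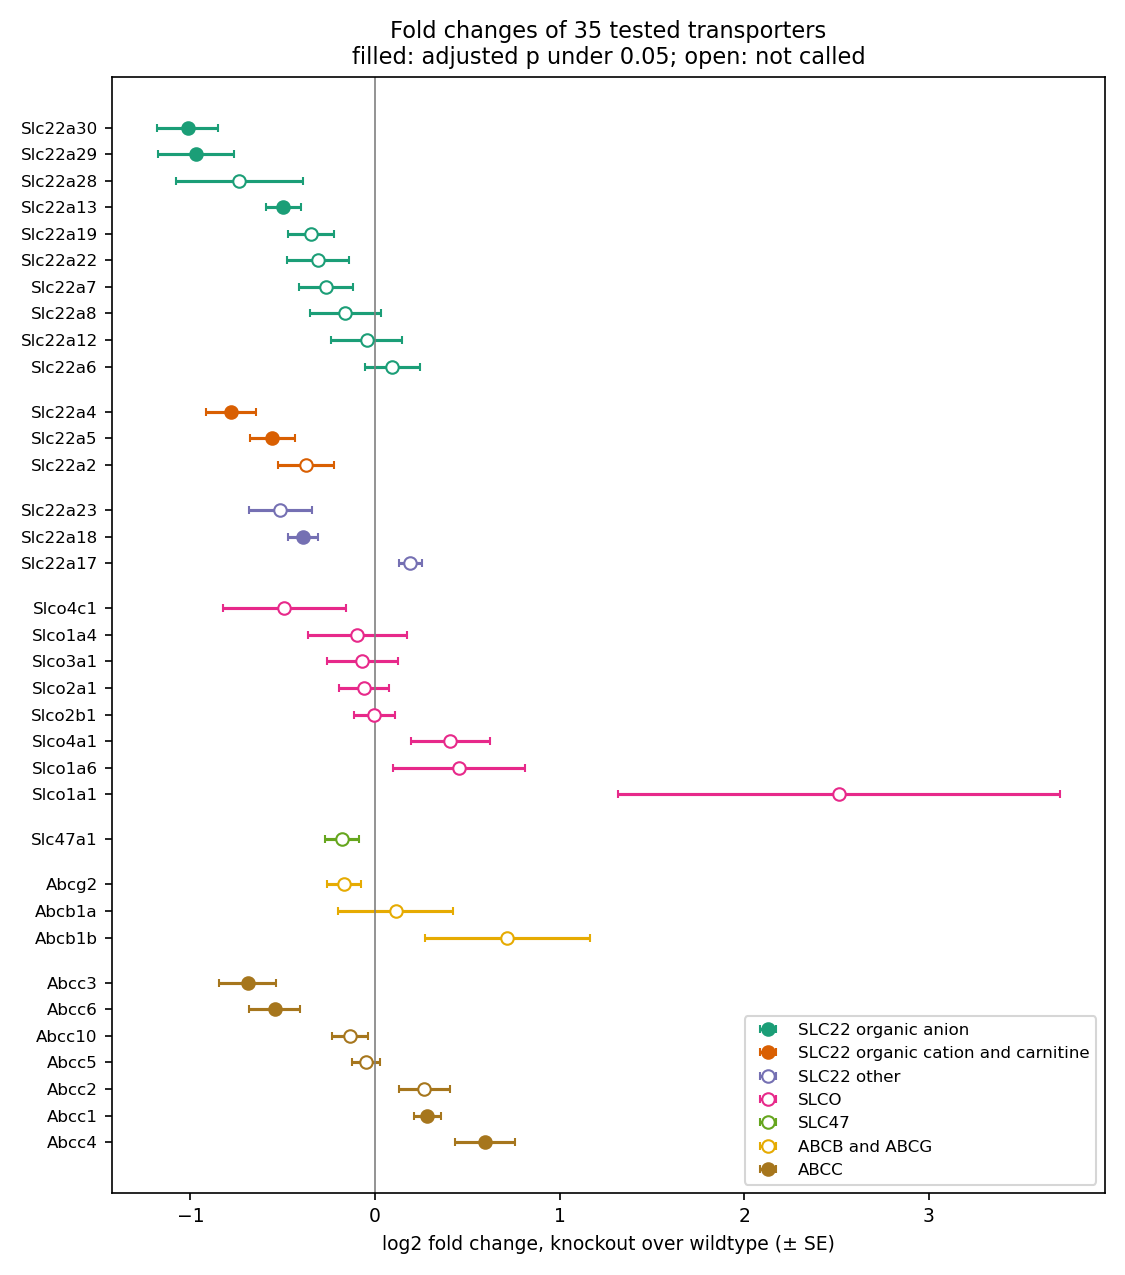
Fold change of each of the 35 tested transporters, by family. The horizontal axis is the log2 fold change of knockout over wildtype with its standard error, n = 4 libraries each, and filled points passed edgeR's test at an adjusted p under 0.05. The 6 filled SLC22 points lie left of 0, the ABCC family holds 2 filled points on each side, and no SLCO point is filled.

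Markers of the proximal tubule moved too, where 5.7% of all genes tested fell and 6.23% rose. Which cells the transporter reads came from was not tested. Of 14 proximal tubule markers 6 fell and none rose, and their summed level was 14300 to 22170 CPM in knockout and 25700 to 27060 CPM in wildtype kidneys. Of 8 markers of the S3 segment 3 fell, with sums of 3085 to 4032 CPM in knockout and 4492 to 5178 CPM in wildtype kidneys. Of the 5 markers of the S1 and S2 segments 1 fell, the glucose carrier gene Slc5a2, with sums of 481 to 911 CPM in knockout and 1119 to 1657 CPM in wildtype kidneys. No marker of these lists was at 0 in any library. The transporters summed to 6722, 6074, 8091 and 7224 CPM in knockout kidneys, against 7519, 7559, 7694 and 7670 CPM in wildtype kidneys. The sum of the transporters thus overlapped between the groups, through knockout 3, while the proximal marker sums did not. Lists of other cells moved as well. Of 10 macrophage markers 9 rose (sums of 244 to 346 CPM in knockout and 165 to 194 CPM in wildtype kidneys), and of 8 tubular injury genes 6 rose (3481 to 4213 CPM in knockout and 2216 to 3058 CPM in wildtype kidneys). In the distal nephron 7 of 8 thick ascending limb and 6 of 6 distal convoluted tubule markers fell, and 7 of 8 intercalated cell and 6 of 7 principal cell markers rose. The part of these cells in the transporter results was not tested.

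Single libraries stood apart. Knockout 2 was the lowest of the 8 libraries for 20 of the 35 tested transporters, against 15.7% of all genes. It also had the lowest sum of proximal tubule markers. Relative to the wildtype mean, the median transporter stood at -0.25, -0.33, -0.05 and -0.17 on the log2 scale in knockout 1 to 4, and at -0.04, 0.02, 0.05 and -0.07 in wildtype 1 to 4. Without knockout 2, 7 of the 8 genes still fell (all but Abcc6) and neither of the 2 rose, where 6.98% of all genes were called. Genes of the adrenal cortex summed to 236 CPM in knockout 4 and to 6.19 to 8.78 CPM in the other 7 libraries, and without knockout 4 the same 7 fell and Abcc4 rose, where 7.61% of all genes were called. A clock score, the mean log2 CPM of 9 clock output genes minus that of 4 clock activators, was 1.21, -0.80, -1.18 and -0.29 in knockout kidneys and 0.64, 2.01, 3.38 and 2.38 in wildtype kidneys. With this score as a term, only Slc22a30 of the 35 transporters fell and only Abcc1 rose, and the share of all genes called was also lower, at 4.46%. Knockout 1 scored above wildtype 1, and the other knockout libraries scored below all wildtype libraries. The score thus largely followed the group, and this fit cannot separate the clock from the group. Abcc3 and Abcc4 lost their calls though their estimates grew, to -0.82 and 0.65 from -0.69 and 0.60. The part of the clock in the results was not tested.

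**Figure D2:**
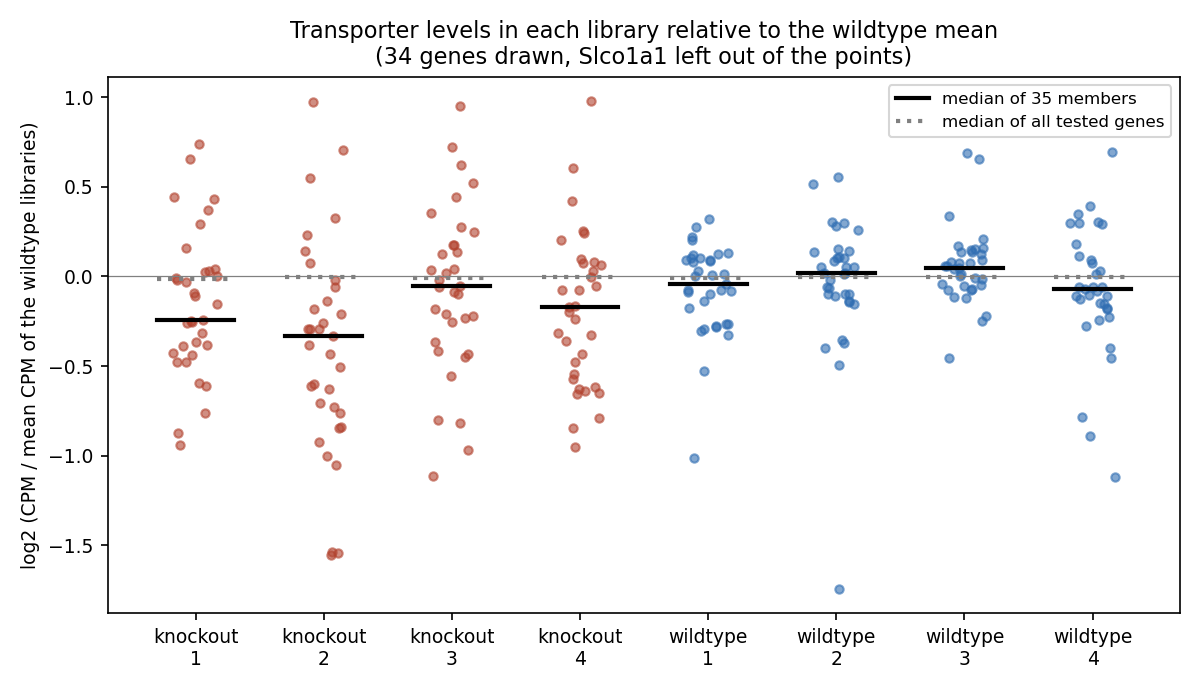
Level of each transporter in each library relative to the mean of the wildtype libraries, as a log2 ratio on the vertical axis. Each point is 1 gene (34 drawn, without Slco1a1), solid bars are the median of the 35 tested transporters and dotted bars that of all tested genes. The solid bar is lowest in knockout 2, at -0.33, and lies close to 0 in knockout 3, at -0.05.

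The levels per length put the carriers in order. On the scale of CPM per kilobase of exon, the highest in knockout kidneys was the urate carrier gene Slc22a12, with 281 ± 65.2, against 289 ± 58.4 in wildtype kidneys (SD, n = 4 each). Next came Slc22a18 with 239 ± 17.7 in knockout and 314 ± 20.5 in wildtype kidneys. Slc22a7 followed with 225 ± 25.7 in knockout and 271 ± 57.1 in wildtype kidneys, and Slc22a8 with 218 ± 49.0 in knockout and 243 ± 52.2 in wildtype kidneys. Neighbours among these 4 differed by less than the larger of their SDs in each group. Slco1a6, Slc47a1, Slc22a6 and Slc22a2 took ranks 5 to 8 in knockout kidneys, at 180 to 94.2. At the low end stood Slc47a2, at 0.321 in knockout and 0.152 in wildtype kidneys, and Slco4c1, at 0.401 in knockout and 0.563 in wildtype kidneys. Slc22a29 ranked 20 in knockout and 15 in wildtype kidneys, Slc22a4 18 in knockout and 14 in wildtype kidneys, and Abcc4 13 in knockout and 19 in wildtype kidneys. Slc22a5 ranked 9 in both groups, and Slc22a13, Slc22a18 and Abcc3 differed by 1 place.

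**Figure D3:**
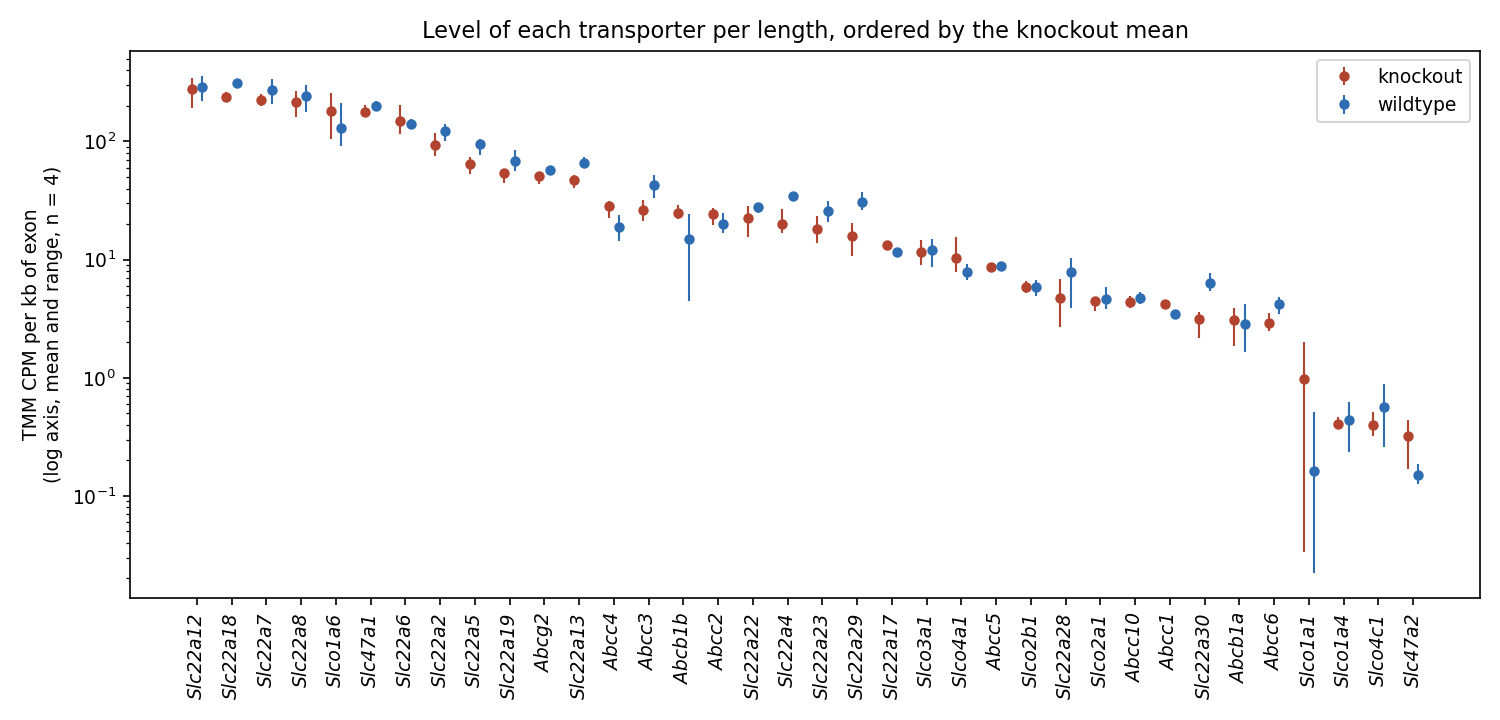
Level of each of the 36 transporters per length, in TMM CPM per kilobase of exon on a log axis. Points are the mean of 4 libraries, with knockout left of wildtype, and lines run over the range of the libraries. The levels span from 281 (Slc22a12) to 0.321 (Slc47a2) in knockout kidneys, and the range is widest for Slco1a1.

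The SLC22 organic anion carriers held the steepest falls, in a cluster of close copies on chromosome 19. Slc22a27, Slc22a28, Slc22a29 and Slc22a30 are rodent genes of the organic anion carrier family that stand next to each other among the protein-coding genes, between Slc22a26 and Slc22a8. The openings of their coding sequences are shown because they bear on how far reads can be assigned to single copies. They are bases 1 to 90 from the start codon in GENCODE M21 transcripts, 5′ to 3′, with capitals for the bases that differ from Slc22a30.
Slc22a30: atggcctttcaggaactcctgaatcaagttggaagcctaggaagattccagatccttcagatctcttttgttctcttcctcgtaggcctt
Slc22a28: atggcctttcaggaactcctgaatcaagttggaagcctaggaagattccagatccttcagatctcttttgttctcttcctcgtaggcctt
Slc22a29: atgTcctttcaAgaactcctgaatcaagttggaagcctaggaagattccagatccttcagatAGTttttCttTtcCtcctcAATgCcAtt
Slc22a27: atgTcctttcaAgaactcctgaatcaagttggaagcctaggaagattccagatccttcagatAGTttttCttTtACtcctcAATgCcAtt
In this stretch Slc22a28 did not differ from Slc22a30, while Slc22a29 differed at 13 bases and Slc22a27 at 14. Over the whole coding sequence Slc22a28 and Slc22a30 were 98.8% identical, Slc22a27 and Slc22a29 97.3%, and Slc22a29 and Slc22a30 92.4%. Of all stretches of 50 bases in the transcripts, 53.9% in Slc22a28, 34.3% in Slc22a30 and 28.7% in Slc22a29 also occur in another gene. Reads from such stretches may have been listed as not unique and left out, so the counts of each copy are uncertain.

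Slc22a30 had 11.6, 7.32, 12.3 and 11.1 CPM in knockout kidneys, against 25.8, 19.4, 18.3 and 21.8 CPM in wildtype kidneys. Every knockout library lay below every wildtype library, and knockout 2 was the lowest. Slc22a30 fell by 1.01 ± 0.17 (SE) on the log2 scale, with an edgeR adjusted p of 0.00314. Slc22a29 had 46.2, 24.2, 32.6 and 40.8 CPM in knockout kidneys, against 77.2, 85.7, 59.2 and 59.6 CPM in wildtype kidneys. Again the groups did not overlap, and Slc22a29 fell by 0.97 ± 0.21 (edgeR adjusted p = 0.0185). Slc22a28 had 8.24, 5.38, 13.7 and 10.8 CPM in knockout kidneys, against 7.83, 17.5, 17.2 and 20.8 CPM in wildtype kidneys. Wildtype 1 lay among the knockout libraries, and the change of -0.73 ± 0.35 was not called (edgeR adjusted p = 0.215). The neighbour Slc22a27, which is outside the 36, averaged 1.99 ± 1.31 CPM in knockout and 8.96 ± 4.13 CPM in wildtype kidneys (SD, n = 4 each) and fell by 2.15 ± 0.46 on the log2 scale (edgeR adjusted p = 0.0184). Summed over the 4 copies, the level was 69.97, 38.0, 59.9 and 64.3 CPM in knockout kidneys, against 125, 132, 101 and 108 CPM in wildtype kidneys. Reads listed as not unique are in no copy's count, so the sum does not recover them. All knockout sums lay below all wildtype sums. Slc22a30 kept its call in all 20 other settings. Slc22a29 lost it at a threshold of 0.01, without wildtype 1 (-0.92, adjusted p = 0.0528), with no filter on low counts (-0.97, adjusted p = 0.0530) and with the clock term (-0.87, adjusted p = 0.213).

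The stretches upstream of the transcription start of this pair are shown because both genes fell. They are the 250 bases before the start in RefSeq on GRCm38.p6, written 5′ to 3′ along the gene's strand, with capitals for GTTAAT, the core of the HNF1 motif, on either strand.
Slc22a29, chr19:8218901-8219150, minus strand: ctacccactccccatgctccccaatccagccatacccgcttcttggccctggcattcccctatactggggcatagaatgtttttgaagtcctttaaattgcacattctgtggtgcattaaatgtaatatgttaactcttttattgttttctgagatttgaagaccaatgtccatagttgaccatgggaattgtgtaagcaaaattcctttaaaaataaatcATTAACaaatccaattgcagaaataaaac
Slc22a30, chr19:8405106-8405355, minus strand: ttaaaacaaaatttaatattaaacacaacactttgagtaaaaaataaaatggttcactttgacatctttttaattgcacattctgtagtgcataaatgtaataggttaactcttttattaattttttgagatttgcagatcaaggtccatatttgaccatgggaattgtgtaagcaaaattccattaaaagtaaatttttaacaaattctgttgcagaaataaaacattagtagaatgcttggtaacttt
The windows of Slc22a29 and Slc22a30 were 77.8% identical over the aligned bases, against 97.5% between Slc22a28 and Slc22a30. GTTAAT was found in 1 place upstream of Slc22a29 and in none upstream of Slc22a30. It was in 3 of the 38 transporter windows, also those of Slc22a6 and Slc22a8, which were not called, and in 6.43% of all 32851 windows.

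Slc22a13, the gene of OAT10, an apical exchanger of nicotinate and urate, had 95.6, 80.2, 97.4 and 103 CPM in knockout kidneys, against 121, 138, 149 and 124 CPM in wildtype kidneys. The groups did not overlap, and Slc22a13 fell by 0.50 ± 0.09 (edgeR adjusted p = 0.00701). Of its 50-base stretches, 36% also occur in the pseudogene Slc22a13b-ps. Slc22a13 lost its call only with the clock term, at -0.33 (adjusted p = 0.229).

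The carriers of the classical organic anion pathway were not called. Slc22a6, the gene of OAT1, which takes up para-aminohippurate and many anionic drugs in exchange for dicarboxylates, had 557, 458, 806 and 572 CPM in knockout kidneys, against 612, 569, 543 and 520 CPM in wildtype kidneys. Knockout 3 was the highest and knockout 2 the lowest of all 8 libraries, and the wildtype libraries lay between, with a log2 fold change of 0.09 ± 0.15 (edgeR adjusted p = 0.733). Slc22a8, the gene of OAT3, with a broader range of anions, had 969.9, 626, 1045 and 764 CPM in knockout kidneys, against 1036, 1173, 901 and 694 CPM in wildtype kidneys. The groups overlapped over most of their range, with a log2 fold change of -0.16 ± 0.19 (edgeR adjusted p = 0.639). Slc22a7, the gene of OAT2, had 434, 421, 531 and 507 CPM in knockout kidneys, against 503, 439, 631 and 703 CPM in wildtype kidneys, and its change of -0.27 ± 0.14 was not called (edgeR adjusted p = 0.270). Slc22a12, the gene of the urate reabsorber URAT1, had 433, 627, 777 and 701 CPM in knockout kidneys, against 817, 497, 677 and 628 CPM in wildtype kidneys. The lowest library was a knockout and the highest a wildtype one, with a log2 fold change of -0.04 ± 0.19 (edgeR adjusted p = 0.911). Of its exon bases, 30.1% overlap Nrxn2 on the opposite strand, and the counts were named as not stranded. Reads there cannot be assigned by strand and may be missing from the count, while its level per kilobase used the full exon length.

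Slc22a19, the gene of OAT5, an apical exchanger of sulfate conjugates, had 312, 244, 317 and 297 CPM in knockout kidneys, against 306, 357, 369.6 and 456 CPM in wildtype kidneys. Wildtype 1 lay within the knockout range, and the change of -0.35 ± 0.12 was not called (edgeR adjusted p = 0.0952). It passed without wildtype 1, at -0.43 (adjusted p = 0.0498), and with DESeq2 (adjusted p = 0.0488). Slc22a22, a prostaglandin carrier gene of mouse kidney, averaged 54.4 ± 14.2 CPM in knockout and 67.4 ± 5.17 CPM in wildtype kidneys (SD, n = 4 each) and was not called (-0.31 ± 0.17, edgeR adjusted p = 0.281). In this family of 10, 3 fell, none rose and 7 were not called, with a median log2 fold change of -0.33. Of all genes tested, 5.7% fell. At an unadjusted p under 0.05 there were 4, the 3 and Slc22a19, all lower in knockout kidneys. Of all 15228 genes tested, 4133 had an unadjusted p under 0.05 in the same edgeR test. DESeq2 called those 4 carriers. It called 2429 of 25225 genes with any count (9.63%), a wider base than the 15228 genes of the edgeR test.

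**Figure D4:**
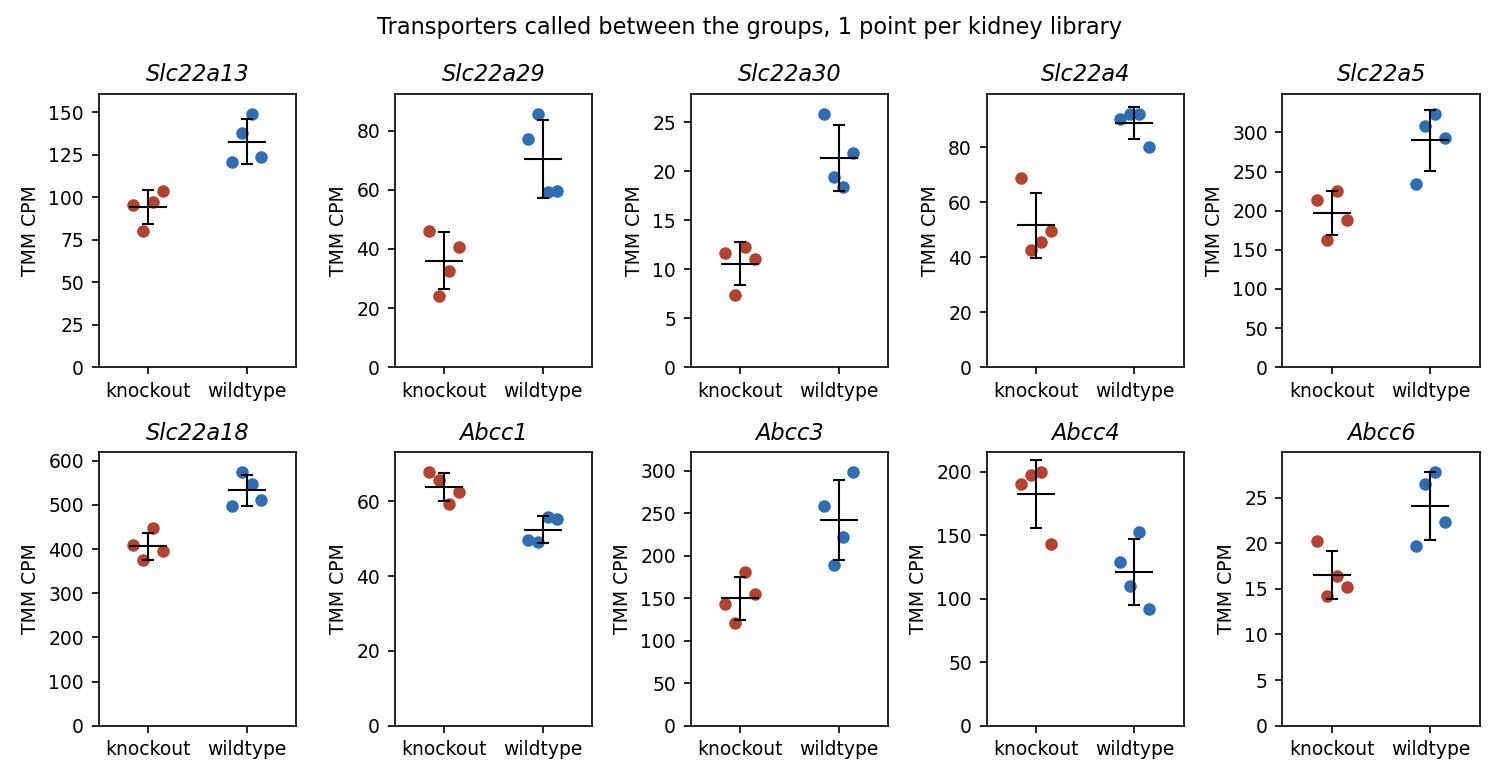
TMM CPM of the 10 transporters that passed the test, with 1 point per library and the mean ± SD of 4 libraries per group. The vertical axis of each panel starts at 0. Knockout points lie below all wildtype points in 7 panels and above them for Abcc1, and the groups overlap for Abcc4 and Abcc6.

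The carriers of carnitine and ergothioneine fell. Slc22a5, the gene of the carnitine carrier OCTN2, which recovers carnitine from the filtrate, had 214, 162, 225 and 188 CPM in knockout kidneys, against 235, 309, 324 and 293 CPM in wildtype kidneys. The lowest wildtype library, wildtype 1, lay just above the highest knockout library. Slc22a5 fell by 0.56 ± 0.12 (edgeR adjusted p = 0.0146). Of its 50-base stretches, 26.3% occur in other genes, chiefly its neighbour Slc22a21, which averaged 4.05 ± 0.53 CPM in knockout and 4.49 ± 0.76 CPM in wildtype kidneys (SD, n = 4 each). The sum of the pair was 218, 165, 229 and 192 CPM in knockout kidneys, against 239, 313, 329 and 297 CPM in wildtype kidneys, again without overlap. This sum too leaves out reads listed as not unique. Slc22a4, the gene of the ergothioneine carrier OCTN1, had 68.8, 42.7, 45.4 and 49.4 CPM in knockout kidneys, against 90.4, 92.0, 92.1 and 80.0 CPM in wildtype kidneys. Knockout 1 was the highest of its group and still below wildtype 4, the lowest of the other. Slc22a4 fell by 0.78 ± 0.14 (edgeR adjusted p = 0.00530). With the clock term neither gene was called, Slc22a5 at -0.30 (adjusted p = 0.393) and Slc22a4 at -0.50 (adjusted p = 0.137). Without knockout 1 and 4 together, Slc22a5 was at -0.58 (adjusted p = 0.0823).

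Slc22a2, the gene of OCT2, the basolateral carrier for metformin, creatinine and other cations, had 255, 186, 291 and 203 CPM in knockout kidneys, against 349, 326, 288 and 249.8 CPM in wildtype kidneys. Knockout 3 and knockout 1 lay above the lowest wildtype library, and the change of -0.37 ± 0.15 was not called (edgeR adjusted p = 0.141). Its apical partner in cation secretion, the extruder MATE1, is encoded by Slc47a1, which had 567, 554, 687 and 592 CPM in knockout kidneys, against 660.0, 687, 746 and 621 CPM in wildtype kidneys. Knockout 3 lay within the wildtype range, and Slc47a1 was not called (-0.18 ± 0.09, edgeR adjusted p = 0.251). Of the 2 SLC47 genes, 1 was tested and none was called by edgeR, limma voom or DESeq2 among the tested, and none had an unadjusted p under 0.05. EdgeR called 11.9% of all genes tested.

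The upstream window of Slc22a5 is shown because it alone holds 2 matches to GCCNNNGGC, the motif bound by AP-2 factors. It is 1 of 38 windows, of 30 transporters with an entry. Bases shortly after its RefSeq start were not found in the gene's GENCODE M21 transcripts, so the place of this start is uncertain. The 250 bases before the RefSeq start on GRCm38.p6 are written 5′ to 3′ along the gene's strand, with the matches in capitals.
Slc22a5, chr11:53891704-53891953, minus strand: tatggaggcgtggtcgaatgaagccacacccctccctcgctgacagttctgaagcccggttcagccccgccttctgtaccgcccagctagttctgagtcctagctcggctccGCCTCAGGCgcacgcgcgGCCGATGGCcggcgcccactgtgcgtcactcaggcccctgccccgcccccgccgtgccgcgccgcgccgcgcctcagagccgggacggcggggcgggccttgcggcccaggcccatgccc
A match was found in 6 of the 38 windows, and 13.7% of all 32851 windows hold 1 or more. Among the 10 called transporters, Slc22a5 and Abcc4 had a window with a match, and Abcc1, Abcc3 and Abcc6 had no entry. The other windows with a match belong to Abcb1b, Abcc5 and Slco4a1, which were not called, and Slc47a2, which was not tested. Slc22a4, Slc22a13, Slc22a18, Slc22a29 and Slc22a30 had windows in which these letters do not occur.

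Of the other 3 SLC22 genes, 1 fell and none rose, where 5.7% of all genes tested fell and 6.23% rose. Slc22a18, an imprinted gene of a carrier with no settled substrate, had 409, 376, 447 and 395 CPM in knockout kidneys, against 498, 574, 548 and 511 CPM in wildtype kidneys. The groups did not overlap, and Slc22a18 fell by 0.39 ± 0.08 (edgeR adjusted p = 0.0115), with no call in the clock fit (-0.35, adjusted p = 0.177) or without knockout 1 and 4 (-0.37, adjusted p = 0.0925). Slc22a17, the gene of a receptor for lipocalin-2, had 64.8, 58.3, 57.6 and 60.8 CPM in knockout kidneys, against 53.0, 54.8, 53.0 and 50.6 CPM in wildtype kidneys. All knockout libraries lay above all wildtype libraries, but the log2 fold change of 0.19 ± 0.06 did not pass (edgeR adjusted p = 0.0763). Scaled by library totals only, Slc22a17 passed at 0.30 (adjusted p = 0.0191). The orphan carrier gene Slc22a23 averaged 117 ± 26.4 CPM in knockout and 166 ± 27.9 CPM in wildtype kidneys (SD, n = 4 each). Its change of -0.51 ± 0.17 did not pass (edgeR adjusted p = 0.0873), and it passed without knockout 1 (-0.66, adjusted p = 0.0258) and with DESeq2 (adjusted p = 0.0184).

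None of the 8 SLCO genes was called by edgeR, limma voom or DESeq2, and none had an unadjusted p under 0.05. Their median log2 fold change was -0.03. EdgeR called 11.9% of all genes tested, so the lack of a call among 8 genes does not set the family apart. Slco1a6, the gene of an organic anion carrier of rodent kidney and the highest of the family, had 400.4, 586, 768 and 982 CPM in knockout kidneys, against 345, 477, 364 and 807 CPM in wildtype kidneys. The spread within each group was more than 2-fold, with knockout 4 and wildtype 4 the highest, and the log2 fold change was 0.46 ± 0.36 (edgeR adjusted p = 0.465). Slco1a1, a gene known in mouse kidney for higher levels in males, had 0.175, 5.79, 4.03 and 10.6 CPM in knockout kidneys, against 0.452, 0.146, 0.116 and 2.73 CPM in wildtype kidneys. Knockout 1 lay among the low wildtype libraries and wildtype 4 above the others of its group, and the estimate of 2.51 ± 1.20 was not called (edgeR adjusted p = 0.233). Leaving out 1 library moved it over 1.90 to 4.43. Slco1a4 stood at 1.52 to 4.02 CPM and Slco4c1, the gene of a basolateral carrier, at 1.27 to 4.37 CPM over the 8 libraries.

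The remaining SLCO genes had closer values. Slco2a1, the prostaglandin transporter gene, averaged 60.3 ± 7.12 CPM in knockout and 62.7 ± 12.1 CPM in wildtype kidneys (SD, n = 4 each). Slco2b1, whose product carries steroid sulfates, averaged 35.01 ± 3.48 CPM in knockout and 35.1 ± 4.96 CPM in wildtype kidneys. Slco3a1 averaged 98.0 ± 20.4 CPM in knockout and 103 ± 23.2 CPM in wildtype kidneys. Slco4a1, a thyroid hormone carrier gene, had 37.7, 74.1, 48.2 and 39.8 CPM in knockout kidneys, against 43.9, 38.1, 36.5 and 32.2 CPM in wildtype kidneys, with knockout 2 above all others (log2 fold change 0.41 ± 0.21, edgeR adjusted p = 0.256).

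Among the ATP-driven pumps, the ABCC family moved in both directions. Abcc4, the gene of MRP4, which exports cyclic nucleotides, urate and organic anions into urine, had 190.4, 197, 199.5 and 143 CPM in knockout kidneys, against 129, 110.0, 152 and 91.7 CPM in wildtype kidneys. Knockout 4 lay below wildtype 3, and the other knockout libraries lay above all wildtype libraries. Abcc4 rose with a log2 fold change of 0.60 ± 0.16 (edgeR adjusted p = 0.0395). Abcc1, the gene of MRP1, a basolateral exporter of glutathione conjugates, had 67.8, 65.8, 59.3 and 62.6 CPM in knockout kidneys, against 49.8, 49.0, 55.9 and 55.3 CPM in wildtype kidneys. The groups did not overlap, and Abcc1 rose with a log2 fold change of 0.28 ± 0.07 (edgeR adjusted p = 0.0288). Both calls were close to the threshold. Abcc4 was not called without any 1 of knockout 1, 2 or 3 or wildtype 1, 2 or 4 (adjusted p = 0.0648 to 0.112), without knockout 1 and 4 (0.72, adjusted p = 0.0572), with no filter (0.59, adjusted p = 0.0799) or with the clock term (0.65, adjusted p = 0.248). Over the fits that left out 1 library its log2 fold change was 0.48 to 0.73. Abcc1 was not called without any 1 of knockout 1, 2 or 4 or wildtype 1 or 2 (adjusted p = 0.0555 to 0.0816) or without knockout 1 and 4 (0.25, adjusted p = 0.155), and leaving out 1 library put its log2 fold change at 0.25 to 0.32.

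Abcc3, the gene of the basolateral conjugate exporter MRP3, had 143, 121, 181 and 155 CPM in knockout kidneys, against 258, 189, 222 and 298 CPM in wildtype kidneys. The groups did not overlap, although knockout 3 came close to wildtype 2. Abcc3 fell by 0.69 ± 0.15 (edgeR adjusted p = 0.0184) and was not called without wildtype 1 (-0.66, adjusted p = 0.0524), with the clock term (-0.82, adjusted p = 0.125) or without knockout 1 and 4 (-0.68, adjusted p = 0.132). Abcc6, the gene whose loss in humans causes pseudoxanthoma elasticum, had 20.3, 14.2, 16.4 and 15.2 CPM in knockout kidneys, against 19.7, 26.4, 27.8 and 22.3 CPM in wildtype kidneys. Knockout 1 lay above wildtype 1. Abcc6 fell by 0.54 ± 0.14 (edgeR adjusted p = 0.0278) and was not called without any 1 of knockout 2, 3 or 4 or wildtype 2 or 3 (adjusted p = 0.0615 to 0.0848), with a log2 fold change of -0.66 to -0.47 when 1 library was left out. In the clock fit it stood at -0.14 (adjusted p = 0.695), and with library totals at -0.44 (adjusted p = 0.0613).

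The other 3 ABCC genes were not called. Abcc2, the gene of the apical pump MRP2, averaged 206 ± 30.7 CPM in knockout and 171 ± 31.0 CPM in wildtype kidneys (SD, n = 4 each; log2 fold change 0.27 ± 0.14, edgeR adjusted p = 0.252). Abcc5, a cyclic nucleotide exporter gene, averaged 91.8 ± 6.74 CPM in knockout and 94.9 ± 6.73 CPM in wildtype kidneys. Abcc10, the gene of MRP7, averaged 29.8 ± 3.12 CPM in knockout and 32.8 ± 3.04 CPM in wildtype kidneys. The summed level of the 7 ABCC genes was 782, 693, 765 and 723 CPM in knockout kidneys, against 722, 709.7, 772 and 749 CPM in wildtype kidneys, which overlap.

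The upstream window of Abcc4 with an AP-2 match is shown as the counterpart of Slc22a5 among the genes that rose. It belongs to the downstream of the 2 transcript starts with an entry, and its capitals mark GCCNNNGGC near the 5′ end and TGACNNNGC, the antioxidant response element, near the 3′ end. The window of the other start holds TGACNNNGC in 1 place and no GCCNNNGGC.
Abcc4, chr14:118676932-118677181, minus strand: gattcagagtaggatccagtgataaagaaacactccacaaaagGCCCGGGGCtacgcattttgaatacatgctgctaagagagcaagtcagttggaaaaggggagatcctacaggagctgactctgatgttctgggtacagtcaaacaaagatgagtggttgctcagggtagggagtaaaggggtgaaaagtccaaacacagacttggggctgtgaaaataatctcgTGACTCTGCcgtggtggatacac
The second motif was found in 5 of the 38 windows, and 10.2% of all 32851 windows hold it. Besides the 2 windows of Abcc4, it was in windows of Abcc2, Abcc10 and Slco4c1, which were not called.

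P-glycoprotein and the breast cancer resistance protein showed no called change by edgeR, limma voom or DESeq2, and no gene of the 3 had an unadjusted p under 0.05. EdgeR called 11.9% of all genes tested, so the lack of a call among 3 genes does not set them apart. Abcb1b, the main P-glycoprotein gene of these kidneys per length, had 199, 175, 231 and 181 CPM in knockout kidneys, against 120.1, 35.7, 193 and 129 CPM in wildtype kidneys. Wildtype 2 was far below the rest and wildtype 3 within the knockout range, and the log2 fold change was 0.72 ± 0.45 (edgeR adjusted p = 0.359). Abcb1a, the other P-glycoprotein gene, is 88.1% identical to Abcb1b in its coding sequence and averaged 16.9 ± 5.40 CPM in knockout and 15.7 ± 5.71 CPM in wildtype kidneys (SD, n = 4 each). Per kilobase of exon, Abcb1b had 24.6 and Abcb1a 3.08 in knockout kidneys, and 14.9 and 2.86 in wildtype kidneys. Abcg2, the gene of the apical urate and drug pump BCRP, had 438, 357, 449.7 and 414 CPM in knockout kidneys, against 493, 500.1, 431 and 441 CPM in wildtype kidneys. Knockout 1 and knockout 3 lay within the wildtype range, and the log2 fold change was -0.17 ± 0.09 (edgeR adjusted p = 0.269).

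A further list of 65 genes covered relatives, partners, scaffolds, regulators and conjugation enzymes of these transporters. Of 59 tested, 8 rose and 6 fell (23.7%, against 11.9% of all genes), with a median log2 fold change of -0.15. Scaled by library totals only, 9 rose and 2 fell. Without knockout 2, 3 rose and 2 fell, where 6.98% of all genes were called. With the clock term 2 rose and none fell at the adjusted threshold, where 4.46% of all genes were called. Among urate partners, Slc2a9, the gene of the urate carrier GLUT9, averaged 53.3 ± 5.24 CPM in knockout and 30.0 ± 1.09 CPM in wildtype kidneys (SD, n = 4 each). Slc2a9 rose by 0.83 ± 0.08 on the log2 scale (edgeR adjusted p = 0.000142), while Slc22a12 was not called. Which cells the Slc2a9 reads came from was not tested. Slc13a2, the gene of an apical carrier that recovers citrate and succinate, averaged 61.7 ± 11.0 CPM in knockout and 90.6 ± 8.80 CPM in wildtype kidneys and fell by 0.55 ± 0.12 (edgeR adjusted p = 0.0146).

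Of 6 apical scaffolds, 1 fell, where 5.7% of all genes tested fell. Pdzk1, whose product anchors URAT1, OCTN1 and OCTN2 at the brush border, had 514, 296, 507 and 387 CPM in knockout kidneys, against 607, 643, 638 and 663 CPM in wildtype kidneys. Every knockout library was lower than every wildtype library, with knockout 2 the lowest, and Pdzk1 fell by 0.58 ± 0.16 (edgeR adjusted p = 0.0356). Of 12 regulators, 2 fell and 2 rose, where 11.9% of all genes tested were called. Hnf4a, the gene of a nuclear receptor that drives proximal tubule genes, had 623, 559, 789 and 719 CPM in knockout kidneys, against 818, 850.5, 945 and 903 CPM in wildtype kidneys. The groups did not overlap, and Hnf4a fell by 0.39 ± 0.11 (edgeR adjusted p = 0.0432). The HNF4 motif CAAAGTCCA was in 0 of the 38 upstream windows of the transporters and in 0.384% of all 32851 windows. Nfe2l2, the gene of the antioxidant response factor NRF2, which is known to raise ABCC genes in mouse liver, averaged 198 ± 9.34 CPM in knockout and 163 ± 11.4 CPM in wildtype kidneys and rose by 0.27 ± 0.07 (edgeR adjusted p = 0.0317). Esr1, the estrogen receptor gene, averaged 58.4 ± 9.97 CPM in knockout and 18.4 ± 4.78 CPM in wildtype kidneys and rose by 1.67 ± 0.19 (edgeR adjusted p = 0.000983). Its counts can include reads of the CreERT2 transgene, which carries a part of an estrogen receptor, and this was not tested.

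Of 19 conjugation enzymes, which prepare substrates for these pumps, 4 rose and 1 fell, where 6.23% of all genes tested rose and 5.7% fell. Gsta4, a glutathione transferase gene, had 162, 286, 219 and 261 CPM in knockout kidneys, against 140.0, 121, 121 and 93.5 CPM in wildtype kidneys. The groups did not overlap, and Gsta4 rose by 0.97 ± 0.18 (edgeR adjusted p = 0.00923). Gsta3 rose by 0.52 ± 0.14 (edgeR adjusted p = 0.0353) and Gstm1 by 0.46 ± 0.12 (edgeR adjusted p = 0.0356), each with an overlap between the groups. The fourth, Ugt2b5, named only to complete the count, rose at 1.29 ± 0.22 CPM in knockout and 0.42 ± 0.41 CPM in wildtype kidneys (edgeR adjusted p = 0.0473). Ugt3a2, a glycosyltransferase gene, averaged 887 ± 155 CPM in knockout and 1216 ± 91.3 CPM in wildtype kidneys and fell by 0.46 ± 0.12 (edgeR adjusted p = 0.0352). Among 17 relatives, 11 were tested, of which Slc22a14 rose, at 3.31 ± 0.92 CPM in knockout and 1.88 ± 0.21 CPM in wildtype kidneys (log2 fold change 0.82 ± 0.23, edgeR adjusted p = 0.0425), and Slc22a27 fell.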

How the data were processed

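Whole-kidney RNA was extracted with Trizol, and 200 ng entered a directional library kit with 15 PCR cycles, per the labels' protocols. The deposited values are whole-number counts of reads per gene, 1 file per library, with no normalisation. Per the submitters' processing notes, the tools STAR, HTSeq and edgeR and the build mm9 were used; no source used here gives their versions or the annotation. The deposited files carry a name that calls the counts not stranded, so reads where genes on opposite strands overlap cannot be assigned by strand. HTSeq placed 63.8% to 69.1% of records in a gene and listed 15.3% to 18.0% as not unique and 2.17% to 2.42% as ambiguous. Such summary rows stayed out of all totals.

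A table of gene names gave symbols for 32860 of 37583 identifiers. The groups were compared with edgeR 4.0.16 in R 4.3.3 (filterByExpr, TMM factors, robust quasi-likelihood fit with group as the only term). Tests were two-sided, p-values were adjusted by Benjamini-Hochberg over the 15228 genes tested, and the threshold was 0.05. Log2 fold changes are knockout over wildtype. Each edgeR standard error was derived as the absolute log2 fold change over the square root of the test's F statistic. The p-values measure the spread between these libraries, which may be partly technical. Libraries of a group differed beyond sampling noise (chi-square over degrees of freedom 9.04 to 22.9 between pairs). Same-numbered libraries did not deviate together, so the numbers were not used as pairs.

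Exon lengths, shared 50-base stretches and coding sequences came from GENCODE M21 on GRCm38, and upstream windows from RefSeq on GRCm38.p6. No coordinate was set against mm9, and counting lengths may differ from these. Motifs were searched on both strands.

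Named genes are all 36 transporters, up to 4 genes of each further list by smallest adjusted p, and genes a result turns on, except some items that are not reported here; called transporters and the 12 with the highest mean CPM are given per library. The transporters, the lists, the rule and the other settings (including the clock term and the fit without knockout 1 and 4) were chosen with earlier results of these data known. Other settings were DESeq2 1.42.0 and its size factors, limma voom (limma 3.58.1), library totals, upper quartile factors, no filter, a minimum of 1 CPM reached in 4 libraries, a threshold of 0.01 or 0.10, leaving out each library, and a block for the replicate number.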

Additional observations from a re-analysis of the deposited data

Results flagged for a closer look

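Over the transporters and their partner lists, each group of 4 libraries was examined for a library far from the others, by the gap to its nearest neighbour as a share of the group's range, against Dixon's critical value for 4 values. Over 198 groups, 14 libraries passed it, and chance alone flags about 1 in 20 groups.

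Among the transporters, Slc22a4 was lowest in wildtype 4, at 80.0 CPM, with a share of 0.856. Abcc4 was lowest in knockout 4, at 143 CPM, with a share of 0.839. Slco1a1 was highest in wildtype 4, at 2.73 CPM, with a share of 0.872. Slc22a4 fell with wildtype 4 left out as well, and Abcc4 rose with knockout 4 left out.

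Among relatives and partners, Slc22a14 stood highest in wildtype 1 (2.18 CPM, share 0.832), Slco1a5 in wildtype 4 (2.61 CPM, share 0.965), Abcc8 in wildtype 3 (1.11 CPM, share 0.958) and Abcc12 in wildtype 4 (0.0607 CPM, share 1). Abcb4 stood lowest in knockout 4 (0.433 CPM, share 0.871). The lactate carrier gene Slc5a12 stood highest in wildtype 2 (352 CPM, share 0.893).

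Among conjugation enzymes, Ugt1a6a stood highest in knockout 4 (19.2 CPM, share 0.839), Ugt2b5 highest in wildtype 2 (1.02 CPM, share 0.851) and Sult1d1 lowest in wildtype 2 (558 CPM, share 0.887). Acsm3 stood highest in knockout 2 (13.8 CPM, share 0.869) and, in the other group, highest in wildtype 1 (14.5 CPM, share 0.834).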

How the results depend on the processing

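Against 8 transporters falling, the count was 7 to 9 when 1 library was left out, 7 to 10 under the other scalings, filters, tools, the threshold of 0.10 and the replicate block, 3 at a threshold of 0.01, 5 without knockout 1 and 4, and 1 with the clock term. Against 2 rising, the count was 0 to 2 when 1 library was left out, 3 with library totals and at a threshold of 0.10 (Slc22a17 added), 2 with the other scalings, the stricter filter, limma voom and DESeq2, 1 with no filter, 0 at a threshold of 0.01, 1 under the replicate block, 1 with the clock term and 0 without knockout 1 and 4. The share of all genes called was 11.9% in the reported fit, 6.98% to 12.6% when 1 library was left out, 4.64% at 0.01, 7.14% with no filter, 7.18% under the replicate block, 5.82% without knockout 1 and 4 and 4.46% with the clock term. It was 18.7% at 0.10, 9.63% with DESeq2 and 14.2% with library totals, where 10.9% of all genes rose and 3.34% fell. With the remaining scalings, the stricter filter and limma voom it was 11.9% to 12.5%. The shares with no filter and with DESeq2 are of 25225 genes with any count, against 15228 in the reported fit. Genes that DESeq2 left without an adjusted p count there as not called, so these shares are not on a like base. Slc47a2 was tested and counted as rising without knockout 1. Slc22a30 kept its call under all 20 alternatives, and Slc22a13 and Slc22a4 under all but the clock term. Against 8 partner genes rising, the count was 3 to 7 when 1 library was left out, 3 at 0.01, 4 under the replicate block and 2 with the clock term. Against 6 falling, the count was 1 to 10 when 1 library was left out, 2 with library totals, 0 at 0.01, 12 at 0.10, 0 with the clock term and 12 with DESeq2. The cause of these shifts was not tested.

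Direction reversed only for transporters that were not called. Slc22a6 was at -0.13 with the clock term and -0.0823 to 0.20 when 1 library was left out. Slc22a12 was at 0.0561 with library totals, 0.10 without knockout 1 and 4, and -0.16 to 0.10 when 1 library was left out. With library totals, Slco1a4 was at 0.0065, Slco2a1 at 0.0451, Slco2b1 at 0.10, Slco3a1 at 0.0318 and Abcc5 at 0.0590. With the clock term, Slco2a1 was at 0.17, Slco2b1 at 0.30, Slco4a1 at -0.0482 and Abcc5 at 0.0631. Slco2b1 was at 0.0256 with upper quartile factors and 0.0024 with the replicate block, and Slco3a1 at 0.0503 without knockout 1 and 4. When 1 library was left out, Slco1a4 ran over -0.31 to 0.12, Slco2a1 over -0.14 to 0.0784, Slco2b1 over -0.0831 to 0.0610, Slco3a1 over -0.20 to 0.0442 and Abcb1a over -0.0809 to 0.35.

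The replicate numbers did not pair the libraries: correlations of same-numbered deviations were -0.215, -0.210, -0.0527 and 0.157. The block gave 577 genes rising and 517 falling, against 949 and 868, and under it Abcc1 (0.28, adjusted p = 0.105) and Abcc6 (-0.54, adjusted p = 0.0872) were not called by edgeR. Depth limits Slc47a2, Slco1a1, Slco1a4 and Slco4c1, whose levels were mostly of a few CPM.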
